A study of Ursus arctos with 12 samples.

Results

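The antioxidant and NRF2 defence genes were followed in thigh muscle (vastus lateralis) of 6 free-ranging brown bears (Ursus arctos), 2 to 3 years old, each biopsied during winter hibernation and again in the active period in summer of a given year. The bears carried no experimental treatment, and season was the only difference set by the design, so that cold, fasting, inactivity and time of year cannot be told apart. The list of 43 genes was set by symbol and function, with earlier results of these data known, and its rule uses no difference between seasons. A line under its own symbol with at least 30 reads over the 12 libraries was found for 41 of them, among 17290 genes tested. The other two, PRDX2 and TXN, are treated at the end of the account of their families. Libraries held 20191068 to 27283155 reads on genes in summer (n = 6) and 16742406 to 32140160 in winter (n = 6). Levels are given as CPM, the read count of a gene scaled to the size of its library with TMM factors, or as log2 CPM, and fold changes as log2 of winter over summer from edgeR's quasi-likelihood test, followed by ± their SE (standard error). The test had season as its only term, so the summer and winter libraries of a bear were not paired in it. A gene was called when its Benjamini-Hochberg adjusted p over all genes tested was below 0.05.

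Cells make superoxide and hydrogen peroxide mainly in mitochondria and at oxidase enzymes, and contracting muscle is a well-known source of both. Superoxide dismutases turn superoxide into hydrogen peroxide, which catalase, the glutathione peroxidases and the peroxiredoxins then reduce to water. The last of these families draw their electrons from glutathione and thioredoxin, which are kept reduced by NADPH. NRF2, the product of NFE2L2, is the transcription factor that raises many of these genes. In resting cells it is bound by KEAP1, which hands it to a CUL3 ubiquitin ligase for breakdown, and oxidants that modify KEAP1 let NRF2 accumulate.

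In the muscles of the hibernating bears, most members of this defence that changed were lower than in summer. Of the 41 genes, 20 were called, against 39.5% of all genes tested. Of these, 15 fell and 5 rose in winter, against 19.9% of all genes that fell and 19.6% that rose. The genes that fell included glutathione and thioredoxin peroxidases (GPX1, GPX4, PRDX3, PRDX5), the NRF2 inhibitor KEAP1 and the methionine sulfoxide reductase MSRB1, while catalase, 3 glutaredoxins and the inducible haem oxygenase HMOX1 rose. Past stricter limits, an adjusted p below 0.01 with a fold change above 1.3 or below 0.77, 9 were lower and 2 higher, against 12% and 12% of all genes. The median log2 fold change of the 41 genes was −0.19, beside −0.00 over all genes, and within each bear it ranged from −0.37 to −0.10. Winter and summer levels did not overlap for 7 genes that were below summer and 2 that were above it, beside 8.21% and 9.12% of all genes. Direction was shared by all 6 bears for 14 genes that were lower and 4 that were higher (19% and 18.4% of all genes).

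**Figure D1:**
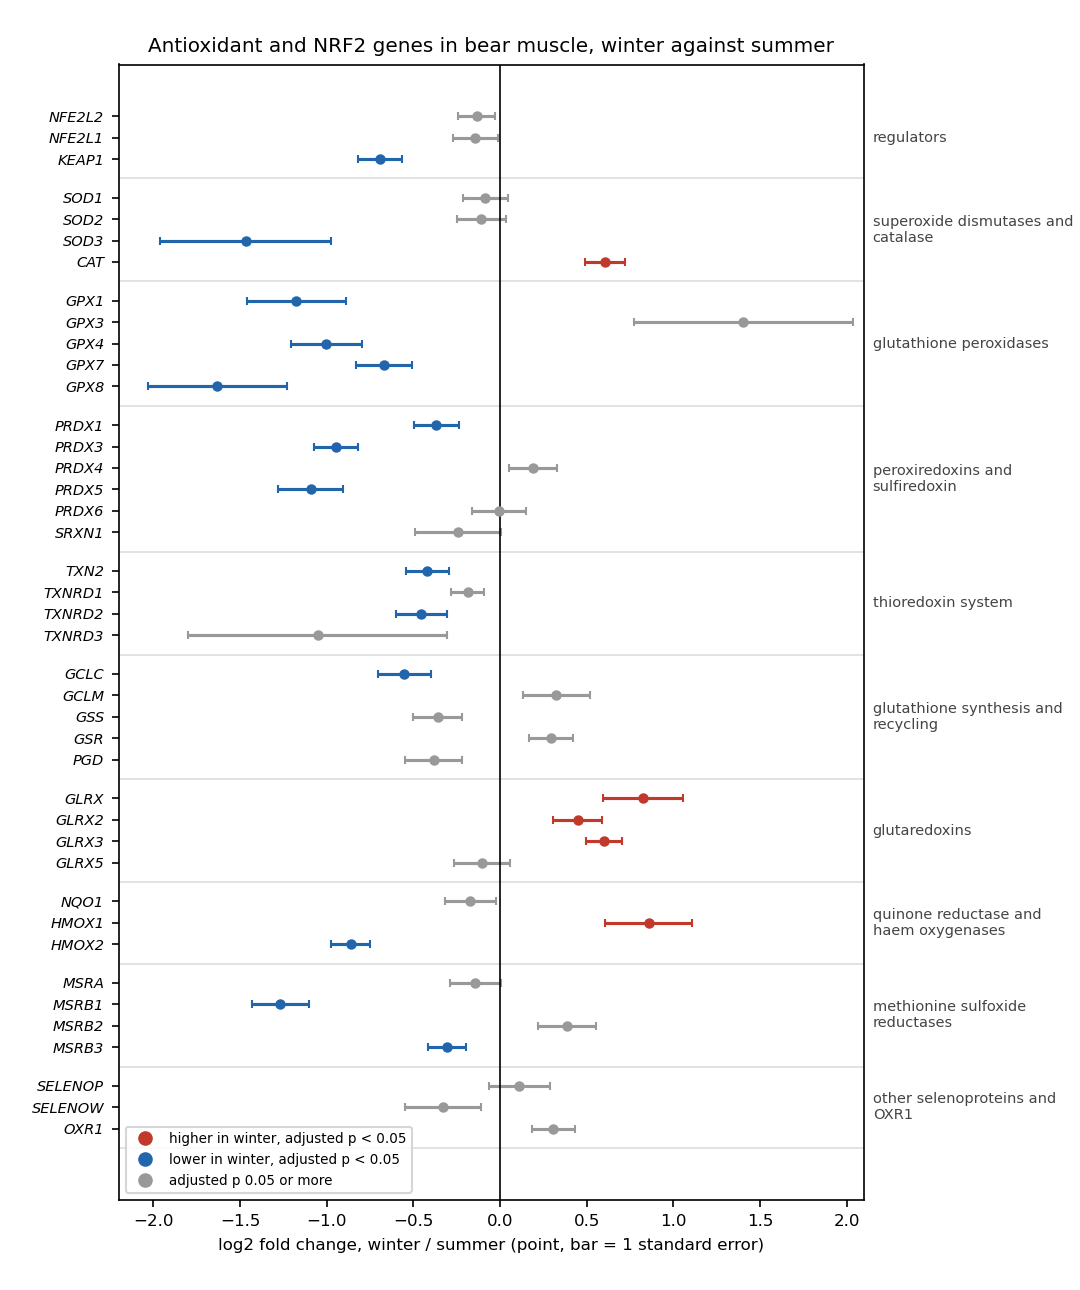
Log2 fold change of winter over summer for the 41 genes, grouped by role (points, edgeR fit on 6 bears per season) with 1 standard error (bars). Blue points are the 15 genes called lower, red points the 5 called higher and grey points the genes not called, and the red points are CAT, HMOX1 and 3 of the 4 glutaredoxins.

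The muscle identity of the biopsies was checked with 12 fibre genes, all of which were read in every library and summed to 124106 to 219229 CPM in summer and 135994 to 179008 CPM in winter. Of these, ACTA1 (log2 fold change −0.90), MB (−1.01) and CASQ1 (−0.39) were called lower and TTN (0.65) higher. Markers of other cell types were read as well. The 8 fibroblast markers summed to 4237 to 11361 CPM in summer and 279 to 1660 CPM in winter, with 6 of 8 called lower. The 8 endothelial markers summed to 660 to 991 CPM in summer and 461 to 529 CPM in winter (6 called lower and 1 higher). The 8 smooth muscle and pericyte markers summed to 531 to 688 CPM in summer and 298 to 368 CPM in winter (3 called lower). The 7 macrophage markers tested summed to 94.8 to 149 CPM in summer and 40.0 to 78.9 CPM in winter (5 of 7 called lower). The 8 adipocyte markers summed to 802 to 2245 CPM in summer, the highest in bear 1316, and to 401 to 902 CPM in winter (2 called lower and 1 higher). Red blood cell markers, of which 4 of 9 could be tested, summed to 3.93 to 67.9 CPM in summer and 34.4 to 56.8 CPM in winter (1 called lower). The neutrophil markers (3 of 8 tested, with MPO, ELANE and CXCR2 under 30 reads) summed to at most 8.39 CPM in any library. The T and B cell markers (7 of 8 tested, 3 lower and 1 higher) summed to at most 5.40 CPM, and the 8 Schwann cell markers (1 lower) to 46.2 to 159.9 CPM. In bulk muscle, fewer cells of a type and less RNA per cell cannot be told apart, and the part of these cells in the results below was not tested.

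The regulators moved unequally. KEAP1 lay at 141 to 158 CPM in summer (median 145) and at 75.3 to 132 CPM in winter (median 83.1). Every winter library lay below every summer library, and the winter library of bear 1511, at 132 CPM, was the only one above 95.2 CPM. KEAP1 had a log2 fold change of −0.69 ± 0.13 (SE, adjusted p = 0.000895), lower in 6 of 6 bears, with differences of single bears from −0.99 to −0.12. NFE2L2, which encodes NRF2 itself, lay at 78.4 to 117 CPM in summer (median 99.0) and at 81.9 to 93.8 CPM in winter (median 92.1), with overlapping seasons. Its log2 fold change was −0.14 ± 0.11 (SE, adjusted p = 0.342), higher in 3 bears and lower in 3. NFE2L1, a related factor known for raising proteasome genes, lay at 313 to 469 CPM in summer (median 419) and 313 to 413 CPM in winter (median 382). Lower in 5 of 6 bears, NFE2L1 was not called either (log2 fold change −0.14, standard error 0.13, adjusted p = 0.398).

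**Figure D2:**
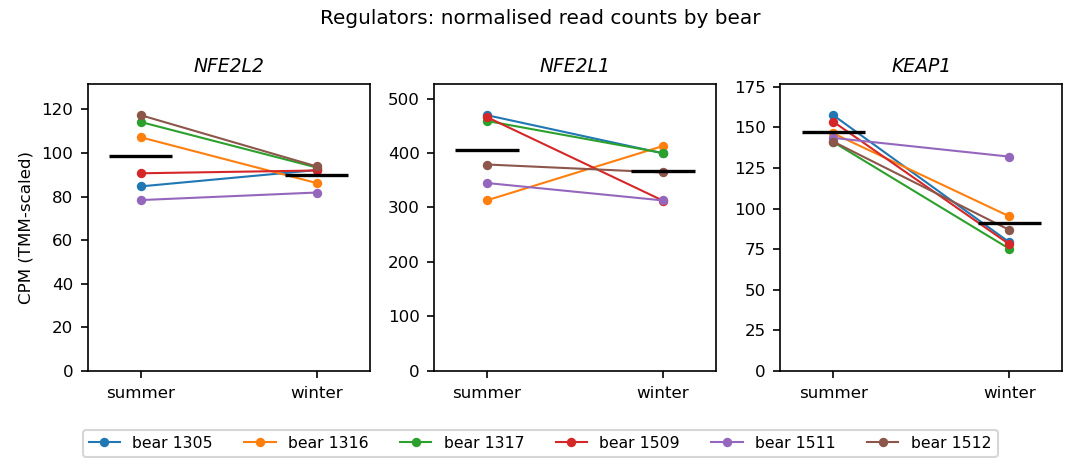
Level of the 3 regulators in each library (CPM, vertical axis from 0) by season, with a coloured line for each bear and a black bar for the mean of 6 libraries. KEAP1 falls in every bear, least in bear 1511, while the lines of NFE2L2 and NFE2L1 cross between seasons.

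Among the enzymes that act on superoxide, the 2 intracellular dismutases showed no called change. Copper-zinc SOD1, the cytosolic form, stood at 103 ± 23.9 CPM in summer and 97.3 ± 7.30 CPM in winter (SD, n = 6). Manganese SOD2, the mitochondrial form, stood at 570 ± 72.7 and 529 ± 102 CPM (SD, n = 6). Their log2 fold changes were −0.08 (adjusted p = 0.631) and −0.11 (adjusted p = 0.567). The secreted dismutase SOD3 was scarce, with 8 to 137 reads per library. It lay at 2.58 to 5.47 CPM in summer (median 3.48) and 0.336 to 4.33 CPM in winter (median 0.863). In 5 winter libraries it was at most 1.07 CPM, below all of summer, and the winter library of bear 1511 alone, at 4.33 CPM, reached into the summer range. This gave SOD3 a log2 fold change of −1.47 ± 0.49 (SE, adjusted p = 0.0296), lower in 6 of 6 bears. Without the winter library of bear 1511 it was −2.31 (adjusted p = 0.000127), and SOD3 was not called without bear 1305 (0.0925), 1316 (0.0795), 1317 (0.0657), 1509 (0.0663) or 1512 (0.067), within 3.58e-06 to 0.0925 over the alternatives. Extracellular matrix producing cells are a known source of SOD3, and 6 of the 8 fibroblast markers were called lower in winter. Their part in the level of SOD3 was not tested.

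CAT, the peroxisomal catalase that breaks down hydrogen peroxide without drawing on glutathione or thioredoxin, rose. Its level was 155 to 221 CPM in summer (median 170.0) and 228 to 319 CPM in winter (median 261), with no overlap. The log2 fold change was 0.61 ± 0.11 (SE, adjusted p = 0.00101), higher in 6 of 6 bears, with single bears from 0.05 in bear 1317 to 0.92. Red blood cells also hold much catalase. HBA1, the haemoglobin gene found under its symbol, lay at 3.13 to 64.4 CPM in summer and 32.7 to 56.2 CPM in winter (log2 fold change 0.80, adjusted p = 0.218). Of the other 3 red cell markers tested, EPB42 was called lower (0.430 to 3.08 CPM in summer, at most 0.441 CPM in winter, adjusted p = 0.00308), while ALAS2 (0.25, adjusted p = 0.792) and AHSP (−0.86, adjusted p = 0.493) were not called. The part of red cells in the level of CAT was not tested. CAT was called in every alternative tried, with adjusted p from 2.66e-06 to 0.00886.

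Of the 5 glutathione peroxidases, 4 fell. GPX1, the abundant cytosolic selenoenzyme, lay at 14.4 to 50.8 CPM in summer (median 27.8) and 6.90 to 17.4 CPM in winter (median 12.6). The seasons overlapped because the summer library of bear 1512, at 14.4 CPM, was low, but GPX1 was lower in 6 of 6 bears, from −2.10 to −0.40 on the log2 scale. Its log2 fold change was −1.18 ± 0.29 (SE, adjusted p = 0.00518). GPX4, which reduces lipid peroxides in membranes and guards against ferroptosis, lay at 41.9 to 93.3 CPM in summer (median 68.3) and 26.6 to 51.4 CPM in winter (median 30.5). Winter bear 1511, at 51.4 CPM, was the only winter library above a summer library. GPX4 thus had a log2 fold change of −1.002 ± 0.21 (SE, adjusted p = 0.00174), lower in 6 of 6 bears.

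GPX7 and GPX8, peroxidases of the endoplasmic reticulum that serve protein folding, were lower without overlap. GPX8 lay at 5.96 to 17.1 CPM in summer (median 9.06) and 0.714 to 5.74 CPM in winter (median 3.30), a log2 fold change of −1.63 ± 0.40 (SE, adjusted p = 0.00582) and the largest called change of the 41 genes. GPX7 lay at 5.78 to 6.90 CPM in summer (median 5.98) and 2.59 to 4.66 CPM in winter (median 4.31), a log2 fold change of −0.67 ± 0.16 (SE, adjusted p = 0.00527). All 6 bears had less of either gene in winter, and a lower sum of fibroblast markers too. The part of fibroblasts in the levels of GPX7 and GPX8 was not tested. GPX3, the form secreted into plasma, was counted at only 3 to 85 reads per library. It lay at 0.132 to 1.81 CPM in summer (median 0.342) and 0.828 to 5.11 CPM in winter (median 1.35), and the highest value was again that of bear 1511 in winter. GPX3 was higher in 5 of 6 bears but not called (log2 fold change 1.40, standard error 0.63, adjusted p = 0.0900). With a replicate block for the bear (each bear compared with itself) its adjusted p was 0.0332, and leaving out bear 1316 (0.0443), limma voom (0.0341) and DESeq2 with the block (0.0041) gave the call too. The range over all alternatives was 0.0041 to 0.379.

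The peroxiredoxins, thiol peroxidases that take their electrons from thioredoxin, split by member. PRDX3, the mitochondrial form, lay at 390.0 to 440.1 CPM in summer (median 401) and 174 to 303 CPM in winter (median 193). Summer libraries were close together and winter libraries lay well below them, that of bear 1509 being the highest at 303 CPM. The log2 fold change of PRDX3 was −0.95 ± 0.13 (SE, adjusted p = 0.000101), lower in 6 of 6 bears, and −1.08 without the winter library of bear 1509. PRDX5, found in mitochondria, peroxisomes and cytosol, lay at 28.4 to 55.2 CPM in summer (median 37.1) and 13.8 to 26.5 CPM in winter (median 17.4). PRDX5 did not overlap between seasons and had a log2 fold change of −1.09 ± 0.19 (SE, adjusted p = 0.000544), lower in 6 of 6 bears. PRDX1, a cytosolic form and a classical NRF2 target, stood at 246 ± 37.0 CPM in summer and 191 ± 34.5 CPM in winter (SD, n = 6). Its log2 fold change of −0.37 ± 0.13 (SE, adjusted p = 0.0386), lower in 5 of 6 bears, was near the threshold. It was lost without bear 1305 (adjusted p = 0.144), 1317 (0.117), 1511 (0.0699) or 1512 (0.0857), and without the winter library of bear 1511 (0.0687), within 0.00427 to 0.144 over the alternatives.

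PRDX4 of the endoplasmic reticulum (log2 fold change 0.19, adjusted p = 0.284), PRDX6, which uses glutathione (−0.01, adjusted p = 0.982), and SRXN1, the sulfiredoxin that repairs overoxidised peroxiredoxins (−0.24, adjusted p = 0.464, 24 to 102 reads per library), were not called. PRDX6 was level on average, at 246 ± 70.3 CPM in summer and 245 ± 31.4 CPM in winter (SD, n = 6), with the highest value, 386 CPM, in bear 1305 in summer. The line that RefSeq's gene number (assembly UrsArc2.0) gives for PRDX2 was listed at 0 reads in all 12 libraries. PRDX2 is widely expressed in other mammals, so that this 0 can be a failed estimate, and no value is given for it.

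**Figure D3:**
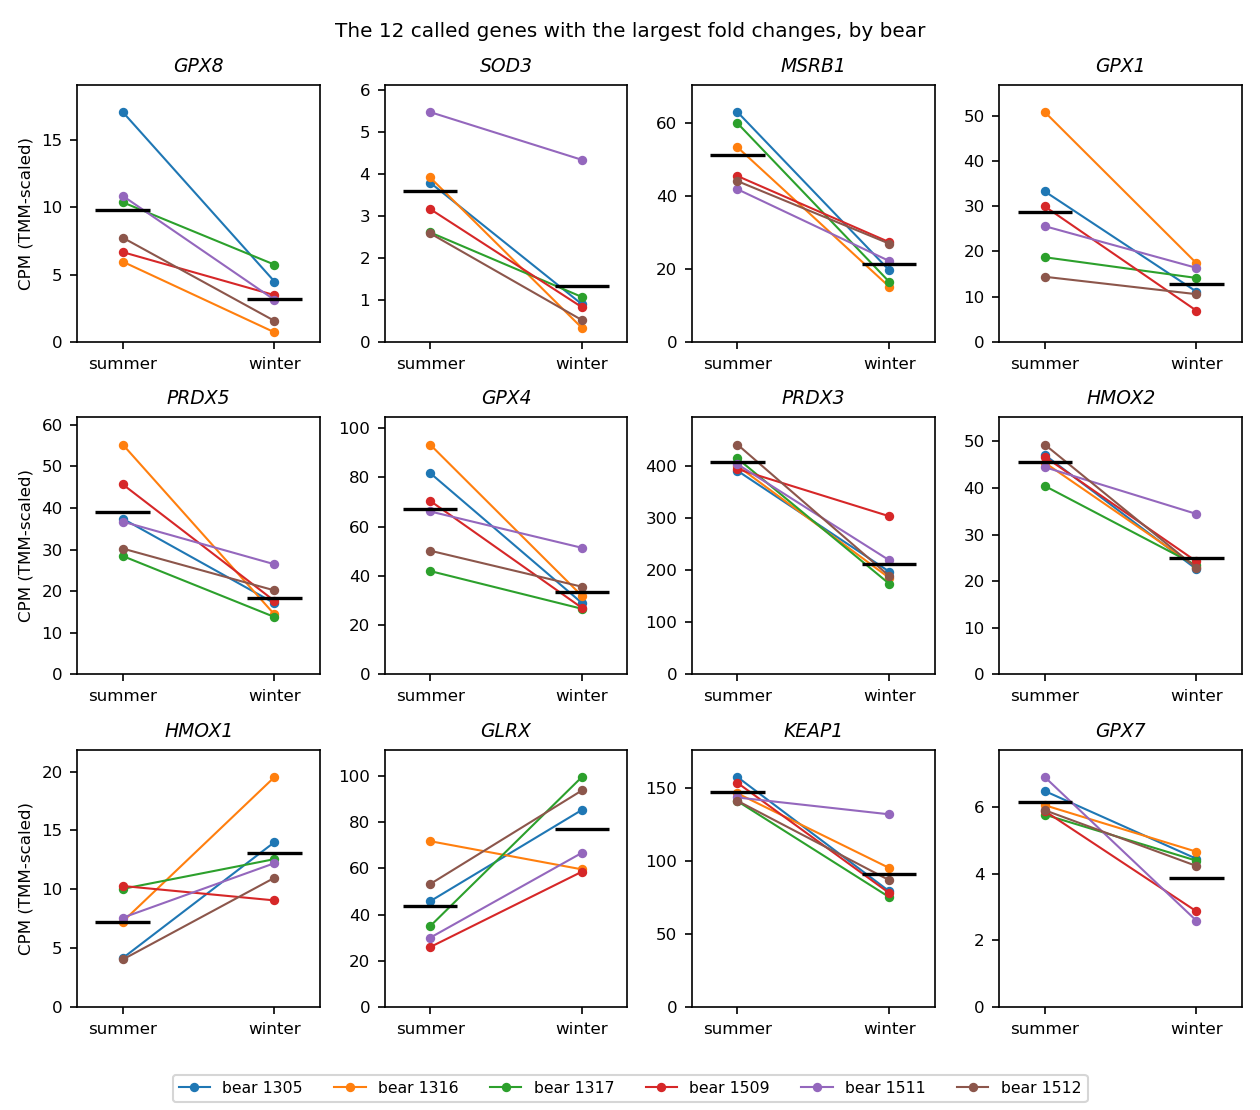
Level (CPM, vertical axis from 0) of the 12 called genes with the largest fold changes in summer and winter, with a coloured line for each bear and a black bar for the mean of 6 libraries. Lines fall in all 6 bears for 10 genes, while HMOX1 and GLRX rise in 5 of 6 bears.

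In the thioredoxin system, the mitochondrial branch was lower. TXN2, the mitochondrial thioredoxin that feeds PRDX3, stood at 104 ± 13.7 CPM in summer and 78.0 ± 13.5 CPM in winter (SD, n = 6), a log2 fold change of −0.42 ± 0.12 (SE, adjusted p = 0.0161), lower in 6 of 6 bears. TXNRD2, the mitochondrial reductase that recharges TXN2, stood at 11.8 ± 1.89 CPM in summer and 8.62 ± 1.58 CPM in winter (SD, n = 6), a log2 fold change of −0.45 ± 0.15 (SE, adjusted p = 0.0241), lower in 5 of 6 bears. Both calls were lost when single bears were left out. TXN2 had an adjusted p of 0.0561 and 0.0551 without bear 1316 or 1509 (range over the alternatives 0.00131 to 0.0561). TXNRD2 had 0.0689, 0.0661, 0.095 and 0.0623 without bear 1305, 1316, 1509 or 1512, within 0.00624 to 0.095.

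The cytosolic branch gave no call. TXNRD1, the cytosolic reductase and an NRF2 target, stood at 50.9 ± 5.60 CPM in summer and 44.8 ± 2.99 CPM in winter (SD, n = 6), with a log2 fold change of −0.19 (adjusted p = 0.132). TXNRD1 was lower in 5 of 6 bears and was called without bear 1316 (adjusted p = 0.0414, within 0.0414 to 0.34 over the alternatives). TXN, the cytosolic thioredoxin, was found through its RefSeq gene number under a LOC line and is not counted among the 41. It stood at 63.0 ± 10.0 CPM in summer and 71.4 ± 5.96 CPM in winter (SD, n = 6), with a log2 fold change of 0.18 ± 0.11 (SE, adjusted p = 0.216), higher in 5 of 6 bears. TXNRD3, a reductase best known from testis, had 1 to 47 reads per library and was not called (log2 fold change −1.05, standard error 0.75, adjusted p = 0.279).

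The glutaredoxins, small thiol reductases that work with glutathione, gave 3 of the 5 higher calls, with 3 of 4 members called. GLRX, the cytosolic glutaredoxin that removes glutathione from proteins, lay at 25.9 to 71.8 CPM in summer (median 40.4) and 58.6 to 99.6 CPM in winter (median 76.0). Only bear 1316, with the highest summer level, went down. The log2 fold change of GLRX was 0.83 ± 0.23 (SE, adjusted p = 0.0122), higher in 5 of 6 bears, with an adjusted p of 0.0584 without bear 1317 (3.94e-05 to 0.0584 over the alternatives). GLRX3, an iron-sulfur carrier protein of the cytosol, lay at 49.5 to 72.5 CPM in summer (median 60.1) and 79.7 to 105 CPM in winter (median 89.6), with no overlap. Its log2 fold change was 0.60 ± 0.10 (SE, adjusted p = 0.000579), higher in 6 of 6 bears. GLRX2, a mitochondrial form, stood at 9.44 ± 1.89 CPM in summer and 12.9 ± 1.79 CPM in winter (SD, n = 6), with a log2 fold change of 0.45 ± 0.14 (SE, adjusted p = 0.0219), higher in 5 of 6 bears. Summer values of GLRX2 lay between 8.62 and 8.74 CPM in 5 bears and at 13.3 CPM in bear 1316. Its adjusted p was 0.0605, 0.0898, 0.0556 and 0.0723 without bear 1305, 1317, 1509 or 1512, within 0.00427 to 0.0898 over the alternatives. GLRX5, which hands on iron-sulfur clusters in mitochondria, was not called (log2 fold change −0.10, adjusted p = 0.639).

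Of the genes that make and recycle glutathione, GCLC alone was called. GCLC, the catalytic subunit of the rate-limiting ligase, stood at 62.4 ± 12.9 CPM in summer and 42.5 ± 8.17 CPM in winter (SD, n = 6), a log2 fold change of −0.55 ± 0.15 (SE, adjusted p = 0.0112), lower in 6 of 6 bears. Without bear 1512, whose difference was the largest at −1.08, the adjusted p was 0.0568 (0.000488 to 0.0568 over the alternatives). GCLM, the modifier subunit of the same ligase, had a log2 fold change of 0.32 ± 0.19 (SE, adjusted p = 0.193), higher in 5 of 6 bears. GSS, which completes glutathione, was lower in 6 of 6 bears at −0.36 ± 0.14 (SE, adjusted p = 0.058), and was called with a replicate block for the bear (adjusted p = 0.0207, within 0.0207 to 0.132 over the alternatives). GSR, which regenerates reduced glutathione, was at 0.29 ± 0.13 (SE, adjusted p = 0.0822), higher in 5 of 6 bears, and was called without bear 1512 (0.0434, within 0.0434 to 0.306). PGD, a source of NADPH in the pentose phosphate pathway, was at −0.38 ± 0.16 (SE, adjusted p = 0.0783), lower in 4 of 6 bears, and was called with library totals in place of TMM (0.0274, within 0.0274 to 0.221).

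The 3 remaining classical stress enzymes went separate ways. NQO1, a quinone reductase often read as an indicator of NRF2 activity, lay at 193 to 318 CPM in summer and 181 to 268 CPM in winter. It was lower in 6 of 6 bears, with differences from −0.30 to −0.00 on the log2 scale, but was not called (log2 fold change −0.17, standard error 0.15, adjusted p = 0.377, within 0.187 to 0.577 over the alternatives). HMOX1, the inducible haem oxygenase, lay at 4.03 to 10.3 CPM in summer (median 7.42) and 9.05 to 19.5 CPM in winter (median 12.4). Bear 1509, highest in summer and lowest in winter, was the exception to a rise in 5 of 6 bears. The log2 fold change of HMOX1 was 0.86 ± 0.25 (SE, adjusted p = 0.0154), with 0.0609 and 0.0585 without bear 1305 or 1316 (range over the alternatives 0.000874 to 0.0609). Macrophages are a known source of HMOX1, and 5 of the 7 macrophage markers tested were called lower in winter. Their part in the level of HMOX1 was not tested. HMOX2, the constitutive haem oxygenase, lay at 40.4 to 49.3 CPM in summer (median 46.0) and 22.6 to 34.4 CPM in winter (median 23.2). Its 6 winter libraries lay below all summer libraries, 5 of them at 24.2 CPM or less and that of bear 1511 at 34.4 CPM. The log2 fold change of HMOX2 was −0.86 ± 0.11 (SE, adjusted p = 8.33e-05), lower in 6 of 6 bears.

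Methionine sulfoxide reductases repair oxidised methionine in proteins, MSRA acting on one stereoisomer and the MSRB enzymes on the other. MSRB1, the selenoprotein of the cytosol and nucleus, lay at 41.9 to 63.0 CPM in summer (median 49.4) and 15.2 to 27.4 CPM in winter (median 20.9). No winter library reached a summer level, and the log2 fold change was −1.27 ± 0.16 (SE, adjusted p = 7.67e-05), the lowest adjusted p of the 41 genes, lower in 6 of 6 bears. MSRB3, of the endoplasmic reticulum, was lower in 5 of 6 bears at −0.31 ± 0.11 (SE, adjusted p = 0.0405). MSRB3 was not called without bear 1305 (0.108), 1316 (0.102), 1317 (0.0981), 1509 (0.0677) or 1511 (0.0806), without the winter library of bear 1509 (0.0518) or with no filter (0.0516), within 0.018 to 0.108 over the alternatives. MSRB2, the mitochondrial form, was higher in 6 of 6 bears at 0.39 ± 0.17 (SE, adjusted p = 0.0803) and was called with a replicate block for the bear (0.0318), with the block in DESeq2 (0.0214) and in limma voom (0.0493), within 0.0214 to 0.16 over the alternatives. MSRA was at −0.14 ± 0.15 (SE, adjusted p = 0.464), lower in 4 of 6 bears.

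SELENOP, the secreted selenium carrier, stood at 273 ± 56.5 CPM in summer and 295 ± 79.9 CPM in winter (SD, n = 6). Its log2 fold change of 0.11 (adjusted p = 0.639) rested on bear 1511, whose winter library lay at 446 CPM, and was −0.04 without that library. SELENOW, a small selenoprotein abundant in muscle, varied from 47.6 to 126 CPM and was at −0.33 ± 0.22 (SE, adjusted p = 0.253), lower in 4 of 6 bears. OXR1, a gene named for resistance to oxidation, was higher in 6 of 6 bears at 0.31 ± 0.12 (SE, adjusted p = 0.0607). It was called in DESeq2 without the bear (0.0444) and with it (0.0445), with filterByExpr (0.0472), without bear 1512 (0.0384) and without the winter library of bear 1511 (0.0371), within 0.0371 to 0.246 over the alternatives.

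Selenocysteine, the selenium amino acid at the active site of many of these enzymes, is carried by the products of 9 of the 41 genes, namely GPX1, GPX3, GPX4, TXNRD1, TXNRD2, TXNRD3, MSRB1, SELENOP and SELENOW. In edgeR, 4 of these 9 were lower and 0 higher, with a median log2 fold change of −0.45, and 1, GPX3, was higher at an unadjusted p below 0.05 (0 in DESeq2, 1 in limma voom). Of the other 32 genes, 11 were lower and 5 higher, with a median of −0.14. The 7 proteins assigned to mitochondria (SOD2, PRDX3, TXN2, TXNRD2, GLRX2, GLRX5 and MSRB2) gave 3 lower and 1 higher, with a median of −0.11. Each gene was counted under a single compartment label, and the counts depend on these labels where a protein is found in several places. PRDX5, for example, called lower and found in mitochondria as well, was counted with the cytosol. Of the 6 assigned to the endoplasmic reticulum (GPX7, GPX8, PRDX4, HMOX1, HMOX2 and MSRB3), 4 were lower and 1 was higher, with a median of −0.49. Beside these counts, 19.9% of all genes tested were called lower and 19.6% higher. The groups are parts of a small list, and no difference between them was tested.

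**Figure D4:**
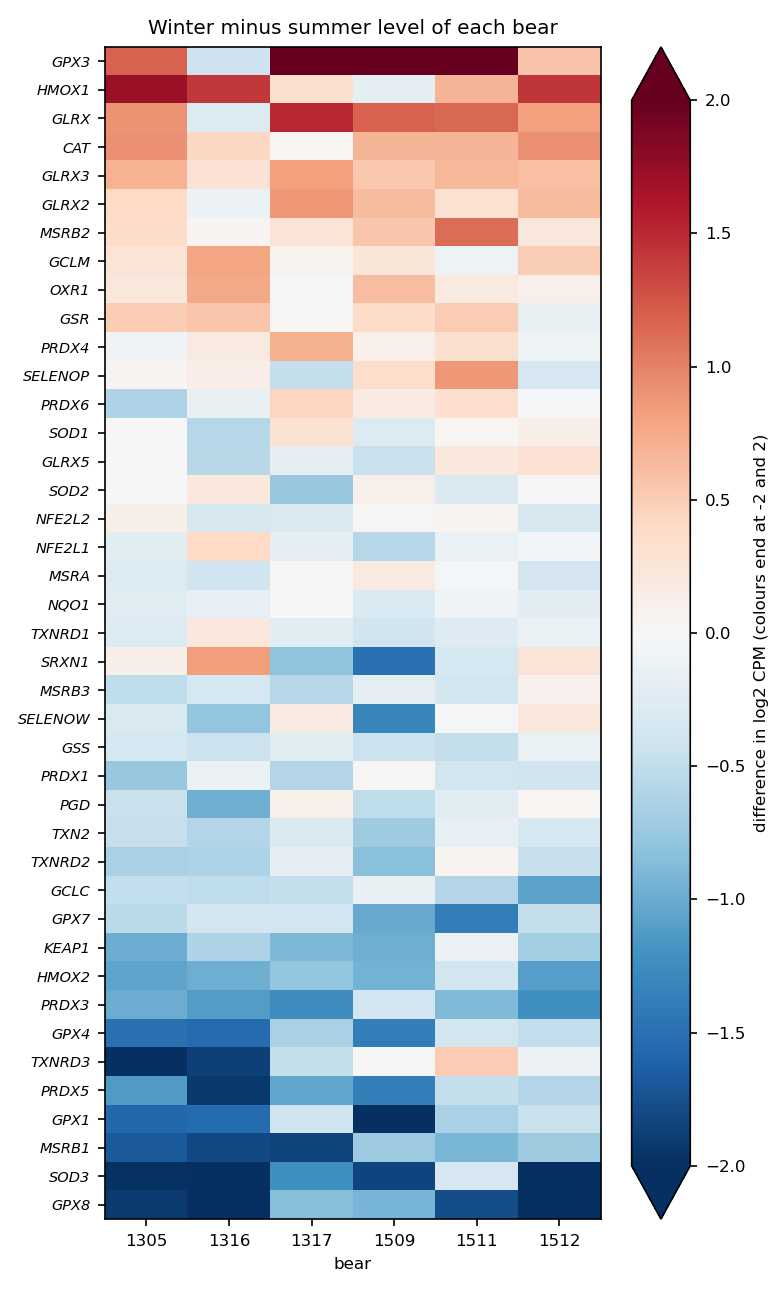
Winter minus summer difference in log2 CPM of each of the 41 genes (rows, ordered by the fitted log2 fold change) in each of the 6 bears (columns). Blue is lower and red higher in winter, colours end at −2 and 2, and the bottom rows from GPX7 to GPX8 are blue in all 6 bears apart from TXNRD3, while bear 1511 is pale for KEAP1, HMOX2, GPX4 and SOD3.

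Bears differed in how far they moved. The winter library of bear 1511 held the highest winter level of 7 of the 15 genes called lower, the winter libraries of bears 1316 and 1509 of 3 each, those of bears 1317 and 1512 of 1 each, and that of bear 1305 of none. Over the 41 genes, the winter library of bear 1511 deviated from the median of the other winter libraries by a median of 0.34 on the log2 scale, beside 0.15 to 0.20 for the others and 0.13 to 0.34 among summer libraries. Over all genes it deviated by 0.32, and the winter library of bear 1509 by more, 0.37. It also held the highest winter sum of fibroblast markers, 1660 CPM, and the part of these cells was not tested. Without it, 14 genes were lower and 6 higher, and without both libraries of bear 1511, 13 were lower and 5 higher. The number of higher genes was 3 without bear 1305 and 3 without bear 1317. With a replicate block for the bear, edgeR called 16 lower and 7 higher. Of the 20 calls, 11 held in every alternative in which they were tested.

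Genes that control or share the NRF2 pathway were taken from lists fixed apart from the 41. The counts of each list stand against 19.6% of all genes called higher and 19.9% called lower. Among 13 regulators and partners, 3 were higher and 1 lower. CUL3, the ligase scaffold that KEAP1 brings to NRF2, stood at 136 ± 19.0 CPM in summer and 220 ± 40.5 CPM in winter (SD, n = 6), a log2 fold change of 0.70 ± 0.14 (SE, adjusted p = 0.00127), higher in 6 of 6 bears. MAFK, a small MAF protein that pairs with NRF2 or with its competitor BACH1 on DNA, was higher in 5 of 6 bears at 1.14 ± 0.29 (SE, adjusted p = 0.00669). BACH1, which represses HMOX1 and other antioxidant genes, was higher in 6 of 6 bears at 0.62 ± 0.12 (SE, adjusted p = 0.000951). DPP3, a peptidase that can bind KEAP1 in place of NRF2, was lower in 6 of 6 bears at −0.93 ± 0.16 (SE, adjusted p = 0.000451).

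Of 17 other NRF2 target and NADPH supply genes, 6 were lower and 0 higher in edgeR (0 at an unadjusted p below 0.05, 0 in DESeq2 and 0 in limma voom), with a median log2 fold change of −0.45. They included TKT of the pentose phosphate pathway, IDH1, IDH2 and NNT, which make NADPH in cytosol or mitochondria, and BLVRB, which acts on biliverdin. TKT had a log2 fold change of −1.58 (adjusted p = 0.014) that rested partly on 85.1 CPM in the summer library of bear 1316, where the other summer libraries lay at 10.8 to 18.7 CPM. It was −0.74 (adjusted p = 0.032) without that bear. BLVRB was lower in 6 of 6 bears at −1.06 ± 0.27 (SE, adjusted p = 0.00673) and NNT at −0.72 (adjusted p = 0.0182).

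The glutathione transferases and glutathione turnover genes gave 7 lower and 1 higher of 19. HAGH, the hydrolase that ends methylglyoxal detoxification, fell from 61.1 ± 10.9 to 16.95 ± 2.65 CPM (SD, n = 6), a log2 fold change of −1.85 ± 0.14 (SE, adjusted p = 2.62e-06) in 6 of 6 bears. GLO1, the enzyme before it in that route, was lower in 5 of 6 bears at −0.50 ± 0.13 (SE, adjusted p = 0.00743). MGST1, a membrane transferase, had a log2 fold change of −3.34 (adjusted p = 0.00756), but its summer library of bear 1316 lay at 63.1 CPM and the other 5 at 2.06 to 4.23 CPM. Without bear 1316 it was −1.22 (adjusted p = 0.00594), with a replicate block for the bear −1.89, and limma voom did not call it (0.0627, within 0.00594 to 0.0627 over the alternatives). That library also had the highest summed adipocyte markers, 2245 CPM against 802 to 1142 CPM in the other summer libraries. GSTM3, matched by its RefSeq gene number and a member of a family of close copies between which short reads can be misassigned, was higher in 6 of 6 bears at 1.22 ± 0.22 (SE, adjusted p = 0.000656).

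Of 16 further thioredoxin-fold proteins and stress sensors, 5 were lower and 1 higher. TXNDC5, a folding enzyme, was at −0.87 (adjusted p = 0.00301) and SESN1, a stress-induced sestrin, at −0.61 (adjusted p = 0.00255), both lower in 6 of 6 bears. TMX3 was higher in 6 of 6 bears at 0.46, with an adjusted p of 0.0476 (0.0161 to 0.154 over the alternatives). Its call was lost without bear 1305 (0.0773), 1316 (0.154), 1317 (0.0584), 1509 (0.059) or 1512 (0.105), without the winter library of bear 1509 (0.0963), in limma voom (0.0516), with library totals (0.142) and with no filter (0.0649). Among 18 other selenoproteins and genes of selenoprotein synthesis, 2 were higher and 2 lower, beside the 19.6% and 19.9% of all genes. SCLY, the selenocysteine lyase that recycles selenium, fell from 10.0 ± 1.88 to 3.31 ± 0.685 CPM (SD, n = 6), a log2 fold change of −1.60 ± 0.17 (SE, adjusted p = 2.22e-05) in 6 of 6 bears. EEFSEC, the elongation factor that brings selenocysteine to the ribosome, was lower in 6 of 6 bears at −0.81 ± 0.16 (SE, adjusted p = 0.00167). SELENOK and SELENOT, selenoproteins of the endoplasmic reticulum, were higher at 0.56 (adjusted p = 0.00663) and 0.27 (adjusted p = 0.0256). The adjusted p of SELENOT was 0.0737, 0.0593, 0.0674, 0.0538 and 0.0604 without bear 1305, 1316, 1317, 1509 or 1512, 0.179 with library totals, 0.0553 with no filter and 0.050012 with a replicate block for the bear (0.00568 to 0.179 over the alternatives).

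Among 9 oxidant-producing enzymes tested, NOX4, an oxidase that releases hydrogen peroxide, was lower in 5 of 6 bears at −0.51 (adjusted p = 0.041). XDH, the xanthine dehydrogenase that can act as an oxidase, was lower in 5 of 6 bears at −0.48 (adjusted p = 0.0422). Both calls were lost when single bears were left out. NOX4 had an adjusted p of 0.146, 0.0935, 0.132 and 0.0597 without bear 1305, 1317, 1511 or 1512, and 0.0749 without the winter library of bear 1511 (0.011 to 0.146 over the alternatives). XDH had 0.119, 0.184, 0.067 and 0.0838 without bear 1305, 1317, 1509 or 1512, and its log2 fold change without bear 1317 was −0.27. With a replicate block for the bear XDH had an adjusted p of 0.079, in DESeq2 with the block 0.0515 and in limma voom 0.0562 (0.0167 to 0.184 over the alternatives).

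**Figure D5:**
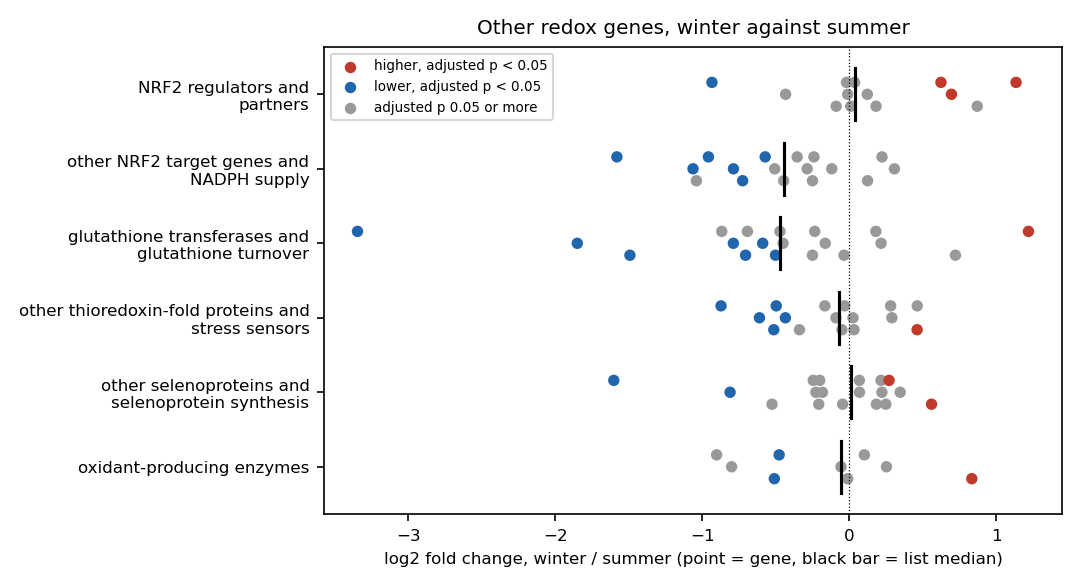
Log2 fold change of winter over summer for the genes of the 6 other redox lists (points, 1 per gene), with the list median as a black bar. Blue points were called lower and red points higher. The medians of the NRF2 target and NADPH supply list and of the glutathione transferase list lie near −0.45 and −0.47, left of 0.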

How the data were processed

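Poly-A RNA of 12 muscle biopsies was sequenced from stranded libraries. The authors aligned single-end reads with TopHat2 (2.1.1) to the bear assembly ASM358476v1 and counted them by strand with featureCounts (1.6.2). The deposited values are whole-number counts per gene with no normalization. How reads with several matches were treated is not given in the sources used here, so genes with near-identical copies, such as GPX, PRDX and GST members, may have lost or shared reads.

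Genes with at least 30 reads over the 12 libraries were tested in edgeR 4.0.16 (R 4.3.3) with TMM scaling, glmQLFit and glmQLFTest, and season as the only term. Standard errors are the log2 fold change divided by the square root of F. log2 CPM used a prior count of 2. Alternatives were the bear as a replicate block, DESeq2 1.42.0 with and without it, limma voom 3.58.1, RLE, library totals, no filter, filterByExpr, each bear left out, and single winter libraries left out (that of bear 1511 chosen after seeing the data). The fits were tested on simulated data. Genes under 30 reads held 0.0190% of reads. The study names DESeq2 and the same animals in both seasons but no design formula. After subtraction of the season mean, libraries correlated at 0.0903 to 0.344 within a bear and at most 0.142 between bears. The lowest chi-square per gene between libraries of a season was 35.8, where counting noise gives about 1, so none is a copy.

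Members, lists and the marker genes were chosen with earlier results of these data known. Every called member is named, with levels in full for the regulators and the 12 largest called changes, and of each other list the 2 largest called rises and falls. IDH1, IDH2, NNT, BACH1 and GLO1 were added for their role after their values were seen. Some listed genes are not reported here. Lanes are not assigned to libraries in the sources used here, so a lane effect was not tested. The mouse data were not analysed here.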

Additional observations from a re-analysis of the deposited data

Results flagged for a closer look

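Among the 41 genes, the 6 libraries of each season were examined for a library whose gap to its nearest neighbour exceeded the share of the whole range that Dixon's 95% critical value allows. Of 82 such groups, 8 held such a library, and chance gives about 1 in 20. All values here are log2 CPM. In summer, bear 1316 lay apart for SOD1, at 7.23 against 6.37 to 6.65 in the others, for GLRX2, at 3.74 against 3.12 to 3.14, and for TXNRD1, at 5.31 against 5.70 to 5.76. Bear 1305 lay apart in summer for PRDX6, at 8.59 against 7.61 to 7.90. In winter, bear 1509 lay apart for SOD1, at 6.37 against 6.62 to 6.68, for PRDX1, at 8.02 against 7.41 to 7.55, and for SRXN1, at 0.50 against 1.33 to 1.77. Bear 1511 lay apart in winter for HMOX2, at 5.11 against 4.50 to 4.60.

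Without the winter library of bear 1509, the log2 fold change of PRDX1 was −0.47 (edgeR, adjusted p = 0.00427) in place of −0.37, and without that of bear 1511 HMOX2 was at −0.97 (edgeR, adjusted p = 7.01e-06) in place of −0.86.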

How the results depend on the processing

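Over 16 alternatives, 592 of 655 values of the 41 genes kept their direction and their side of the threshold, 31 lost the call, 18 gained one and 14 changed sign, none of them a called gene. The number of genes higher in winter, 5, was 8 in DESeq2 with a replicate block for the bear, 7 with this block in edgeR and 3 to 6 with a bear or a winter library left out. Past the stricter limits, the 2 higher genes became 5 in DESeq2, 5 in DESeq2 with the block, 4 in limma voom and 2 to 4 with libraries left out, and the 9 lower genes 5 (without bear 1305) to 11. The 15 lower genes were 17 with library totals, 16 with the block in either tool, 14 with no filter and 11 to 14 with libraries left out. Of the other redox genes, 8 were higher, against 12 in DESeq2 with and without the block, 10 with the block in edgeR, 9 in limma voom, 6 with library totals, 6 with no filter and 5 (without bear 1305) to 8 with libraries left out. Their median of −0.17 was −0.25 with library totals, a setting without TMM scaling. The median of all genes, −0.00, was 0.033 with no filter.

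Signs changed only near 0. PRDX6 was at 0.026 in edgeR with the block, 0.0026 in DESeq2, 0.033 in DESeq2 with the block, 0.027 in limma voom, 0.0026 with RLE, 0.0063 with filterByExpr, and from −0.10 to 0.15 with libraries left out. With libraries left out, SOD1 ran from −0.16 to 0.045 (without bear 1316), SOD2 from −0.16 to 0.013 (without bear 1317) and SELENOP from −0.072 (without bear 1511) to 0.25, with −0.044 without the winter library of bear 1511. The cause of these shifts was not tested. DESeq2 without the block gave no adjusted p for TKT and MGST1, while DESeq2 with the block gave 0.0229 and 0.0348. The largest standard errors among the 41 genes were those of TXNRD3 (0.75), GPX3 (0.63) and SOD3 (0.49), each with at most 137 reads in a library.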
